A study of Mus musculus with 15 samples.

Results

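The core circadian clock genes were followed in the liver of 15 female C57BL/6 mice as 10 genes chosen by symbol: Arntl (also called Bmal1), Clock, Npas2, Per1, Per2, Per3, Cry1, Cry2, Nr1d1 and Nr1d2. All 10 were found among the 55450 gene IDs of the count table, and all 10 were among the 15808 genes that passed the filter on low counts. The mice, 1 library each, fell into 3 groups of 5. At the start the Adult group (A1 to A5) was 6 months old and the Old group (O1 to O5) 22 months old, and both received corn oil as vehicle. PDX mice (P1 to P5) were also 22 months old and received protectin DX, a lipid mediator derived from docosahexaenoic acid, at 30 ng per g of body weight in corn oil. All groups were gavaged daily between 8 and 11 AM, for 9 weeks by the protocol and 8 weeks by the design text. They lived under a 12-h light-dark cycle with food and water ad libitum, apart from a fast before the study's oral glucose tests. Mice were killed in batches, each within a day from 8 AM to 5 PM, in an order that alternated between the groups. The hour and the batch of each mouse are not given in the sources used here. A collection time can therefore not be assigned to any single mouse, and its balance over the sequenced mice cannot be checked.

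The mammalian clock is a loop of transcription. ARNTL pairs with CLOCK or NPAS2 and binds E-box sequences to switch on the Per and Cry genes and the nuclear receptor genes Nr1d1 and Nr1d2, and PER and CRY proteins then return to the nucleus and block the activators. NR1D1 and NR1D2 repress Arntl, Npas2 and Cry1 through ROR elements, which ROR receptors activate, and the PAR bZIP factors DBP, TEF and HLF act through D-boxes with NFIL3 as their opponent. In mouse liver the transcripts of the activator arm and those of the Per and Nr1d arm peak at opposite times of day, so that the ratio between them is commonly read as a rough hand of the clock. Clock itself cycles little in liver.

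Promoter sequence was available for 9 of the 10 genes, in 13 windows of 300 bases that reach from 250 bases before to 50 bases after a RefSeq start (GRCm38.p6). Both strands were searched for the E-box CACGTG, its variant CACGTT, the D-box TTATGNAA and the ROR elements TAGGTCA and TGGGTCA. These letters occurred in 7.15%, 4.68%, 3.38%, 2.61% and 3.98% of all 32851 windows of this length. The sequences below show a window or stretch from the activator, the Per and the Nr1d arm, 5′ to 3′ on the strand of the gene, with the matches in capitals. For Arntl, 30 bases are shown around a TAGGTCA after the start (chr7:113207531-113207560, plus strand). For the other genes the 250 bases before the start are shown, at chr11:69098699-69098948 on the plus strand for Per1, chr4:151044666-151044915 on the minus strand for Per3 and chr11:98775378-98775627 on the minus strand for Nr1d1.
Arntl: aggcagaaagTAGGTCAgggacggaggtgc
Per1: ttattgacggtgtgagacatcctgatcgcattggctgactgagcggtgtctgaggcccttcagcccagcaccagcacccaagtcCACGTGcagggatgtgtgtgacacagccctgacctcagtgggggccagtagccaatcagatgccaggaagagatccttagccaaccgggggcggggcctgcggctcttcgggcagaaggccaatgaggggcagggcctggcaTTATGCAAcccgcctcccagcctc
Per3: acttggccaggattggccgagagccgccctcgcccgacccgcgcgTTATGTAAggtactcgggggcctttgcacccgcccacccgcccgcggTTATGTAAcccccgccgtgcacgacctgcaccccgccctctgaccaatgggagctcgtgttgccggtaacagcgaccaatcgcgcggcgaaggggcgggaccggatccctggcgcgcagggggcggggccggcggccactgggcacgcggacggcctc
Nr1d1: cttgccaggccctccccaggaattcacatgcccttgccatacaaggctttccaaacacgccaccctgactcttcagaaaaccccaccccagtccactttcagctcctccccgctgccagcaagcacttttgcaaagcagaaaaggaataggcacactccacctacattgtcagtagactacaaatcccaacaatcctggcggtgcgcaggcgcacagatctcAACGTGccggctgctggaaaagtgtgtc
The Per1 window shown held a CACGTG and a TTATGNAA, and the Per3 window held TTATGNAA in a pair of places. The capitals in Nr1d1 are CACGTT read on the other strand. Per1 and Arntl each had a further window, at another start, that held none of the searched letters. Cry1 held both CACGTG and CACGTT, Cry2 held CACGTT, and the windows of Clock, Npas2 and Nr1d2 held none of the searched letters. A match describes the letters and does not show that a factor was bound.

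Libraries held between 22424383 and 36070835 counted read pairs. Values below are CPM, the read pairs of a gene scaled to a fixed library total, after TMM scaling, and fold changes are log2 values with their standard error (SE) from the quasi-likelihood test of edgeR with Benjamini-Hochberg adjustment. Hepatocyte markers were high in every library, with summed CPM of 117081 to 129723 in Adult, 43926 to 197835 in Old and 102812 to 159236 in PDX mice. The lowest of these sums belonged to O5 and the next lowest to O2, which also had the highest sums of the B cell, T cell, Kupffer cell and neutrophil markers. In bulk liver, fewer cells of a type and less RNA per cell cannot be told apart. Where a call or a direction changed without O2 and O5, the value without them is given beside the result or with the other alternatives at the end.

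Among the activators, Arntl and Npas2 were both lowest in the Adult mouse A4, whose Arntl was 2.45 CPM where no other mouse was below 21.1 CPM. Arntl lies at chr7:113207465-113314126 on the plus strand (GRCm38). Arntl read 29.5, 30.5, 29.0, 2.45 and 39.4 CPM in A1 to A5. Arntl read 33.7, 21.1, 25.6, 39.1 and 59.6 CPM in O1 to O5. Arntl read 32.2, 28.1, 34.7, 35.5 and 32.1 CPM in P1 to P5. A4 was thus far below the other 14 mice, O5 was the highest, the PDX mice lay close together and the groups overlapped. Group means were 26.2 ± 13.9 CPM in Adult, 35.8 ± 15.0 in Old and 32.5 ± 2.89 in PDX mice (SD, n = 5 each). Arntl differed by a log2 fold change of 0.45 (SE 0.46, adjusted p = 0.555) in Old against Adult, -0.14 (SE 0.46, adjusted p = 0.942) in PDX against Old and 0.31 (SE 0.46, adjusted p = 0.756) in PDX against Adult mice.

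Npas2 (chr1:39193731-39363236, plus strand) encodes the partner that ARNTL can take in place of CLOCK, and it varied more between mice of the same group than 98.1% of the tested genes. Npas2 read 4.47, 9.05, 10.9, 0.476 and 15.8 CPM in A1 to A5. Npas2 read 15.1, 7.75, 3.20, 16.9 and 1.59 CPM in O1 to O5. Npas2 read 12.4, 12.8, 12.2, 12.9 and 11.3 CPM in P1 to P5. The lowest values were those of A4, O5 and O3, and all 5 PDX mice fell in a band inside the range of both other groups. Npas2 differed by a log2 fold change of 0.13 (SE 0.66) in Old against Adult, 0.47 (SE 0.66) in PDX against Old and 0.60 (SE 0.66) in PDX against Adult mice, with adjusted p = 0.921, 0.863 and 0.655. The first of these differences changes sign when A1, A4, O1 or O4 is left out, between -0.24 and 0.51 over the fits without 1 mouse.

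Clock (chr5:76209868-76304792, minus strand) was the steadiest of the 10 genes, with a highest value 1.52 times its lowest. Clock read 32.6, 33.3, 34.4, 22.6 and 33.1 CPM in A1 to A5. Clock read 29.4, 25.3, 31.7, 28.3 and 32.8 CPM in O1 to O5. Clock read 25.2, 26.2, 23.2, 24.1 and 25.5 CPM in P1 to P5. A4 was again the lowest mouse and lay below every PDX mouse, so the PDX and Adult values overlapped. The log2 fold change of PDX against Adult mice was -0.33 (SE 0.12, adjusted p = 0.137), and 5 of 5 PDX mice lay below the Adult mean. Without O2 and O5 the same difference was -0.31 with adjusted p = 0.0425. Against Old mice it was -0.25 (SE 0.12, adjusted p = 0.793), and between Old and Adult mice it was -0.08 (SE 0.12, adjusted p = 0.694).

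**Figure D1:**
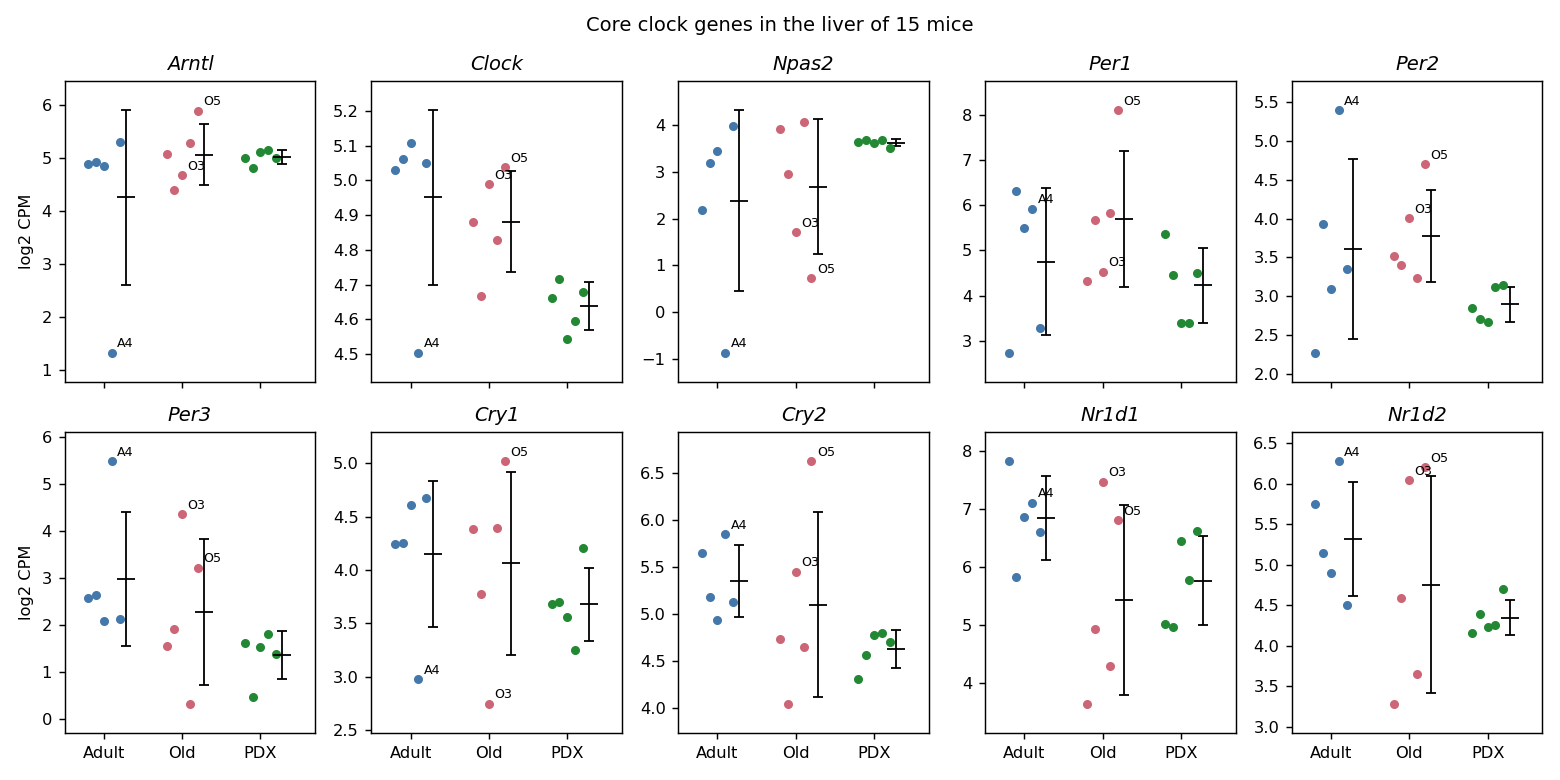
Each panel plots 1 clock gene in log2 CPM (vertical axis, own scale per panel) for 5 Adult, 5 Old and 5 PDX mice, with the group mean and SD as a black bar beside the points. A4 is at the bottom for Arntl, Npas2 and Clock and at the top for Per2, Per3 and Nr1d2, O5 is at the top for Arntl, Per1, Cry1 and Cry2, and the PDX points lie close together in most panels.

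Of the Per genes, which encode the repressors that pair with CRY proteins, Per3 was at 44.5 CPM in A4 and at 20.4 CPM in O3, where no other mouse exceeded 9.23 CPM. Per3 (chr4:151003652-151044665, minus strand) lies wholly within Camta1 on the same strand but shares 0 exon bases with it. Per3 read 5.87, 6.13, 4.19, 44.5 and 4.33 CPM in A1 to A5. Per3 read 2.89, 3.72, 20.4, 1.19 and 9.23 CPM in O1 to O5. Per3 read 3.00, 1.32, 2.84, 3.43 and 2.55 CPM in P1 to P5. A4 and O3 stood highest, O5 next, and every PDX mouse lay below every Adult mouse. The log2 fold change of PDX against Adult mice was -2.30 (SE 0.79, adjusted p = 0.122), and the Wald test of DESeq2 gave adjusted p = 0.0231 for the same difference. Without A4 the value was -0.97 (adjusted p = 0.438 in edgeR). Per3 also differed by -1.51 (SE 0.78, adjusted p = 0.793) between PDX and Old mice and by -0.80 (SE 0.75, adjusted p = 0.522) between Old and Adult mice, and the latter was 0.54 without A4 and -1.61 without O3.

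Per2 (chr1:91415982-91459324, minus strand) was highest in the same Adult mouse. Per2 read 4.78, 15.1, 8.48, 41.9 and 10.2 CPM in A1 to A5. Per2 read 11.4, 10.5, 16.0, 9.36 and 25.9 CPM in O1 to O5. Per2 read 7.14, 6.46, 6.28, 8.61 and 8.77 CPM in P1 to P5. A4 was followed by O5 and O3, A1 was lowest, and every PDX mouse lay below every Old mouse. Per2 was the only clock gene whose PDX and Old values did not overlap, where 0.342% of all tested genes did not overlap in that comparison, and its log2 fold change was -0.97 (SE 0.46, adjusted p = 0.793). Against Adult mice the PDX value was -1.11 (SE 0.46, adjusted p = 0.191), or -0.37 without A4. Between Old and Adult mice the fitted value was -0.14 (SE 0.46, adjusted p = 0.875), or 0.60 without A4.

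Per1 (chr11:69095217-69109960, plus strand), which besides the clock also answers to glucocorticoids and other acute signals, ranked the mice differently from Per3. Per1 read 6.58, 79.4, 45.1, 60.8 and 9.70 CPM in A1 to A5. Per1 read 19.8, 50.9, 23.0, 56.6 and 275.8 CPM in O1 to O5. Per1 read 40.9, 21.9, 10.5, 10.5 and 22.6 CPM in P1 to P5. O5 stood above all other mice, A1 and A5 were lowest, and the groups overlapped. PDX and Old mice differed by a log2 fold change of -2.00 (SE 0.79, unadjusted p = 0.0227, adjusted p = 0.793), which was -0.82 without O5. Old mice differed from Adult mice by 1.08 (SE 0.77, adjusted p = 0.381), which was -0.10 without O5, and PDX from Adult mice by -0.92 (SE 0.77, adjusted p = 0.532).

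Cry1 and Cry2 encode the cryptochromes, the main repressors of the ARNTL complexes, and Cry1 is the later of the Cry genes in the liver cycle. Cry1 (chr10:85131700-85185064, minus strand) read 18.9, 19.0, 24.4, 7.79 and 25.4 CPM in A1 to A5. Cry1 read 20.8, 13.6, 6.63, 21.0 and 32.4 CPM in O1 to O5. Cry1 read 12.8, 13.0, 11.7, 9.47 and 18.3 CPM in P1 to P5. O3 and A4 were lowest and O5 highest, and the groups overlapped. Cry1 differed by a log2 fold change of -0.02 (SE 0.36, adjusted p = 0.982) in Old against Adult, -0.53 (SE 0.36, adjusted p = 0.793) in PDX against Old and -0.55 (SE 0.36, adjusted p = 0.413) in PDX against Adult mice.

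Cry2 (chr2:92403646-92434043, minus strand) ranked the mice differently from Cry1. Cry2 read 50.3, 36.3, 30.6, 57.6 and 35.0 CPM in A1 to A5. Cry2 read 26.5, 16.4, 43.7, 25.1 and 98.6 CPM in O1 to O5. Cry2 read 19.8, 23.6, 27.3, 27.8 and 26.0 CPM in P1 to P5. O5 was highest with A4 next, O2 was lowest, and every PDX mouse lay below every Adult mouse. The log2 fold change of PDX against Adult mice was -0.75 (SE 0.37, adjusted p = 0.268), with adjusted p = 0.0492 without O5 and 0.0132 without O2 and O5. Old and Adult mice differed by 0.00 (SE 0.37, adjusted p = 0.996), or by -0.59 without O5, and PDX and Old mice by -0.76 (SE 0.37, adjusted p = 0.793), or by -0.16 without O5.

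Nr1d1 and Nr1d2 encode REV-ERBα and REV-ERBβ, the heme-binding receptors that repress Arntl. Nr1d1 (chr11:98767932-98775333, minus strand) shares 263 exon bases with Thra on the other strand, and reads were counted by strand. Nr1d1 read 225.6, 56.3, 116.4, 137.8 and 97.4 CPM in A1 to A5. Nr1d1 read 12.4, 30.3, 176.9, 19.6 and 111.6 CPM in O1 to O5. Nr1d1 read 32.2, 31.3, 87.1, 54.5 and 97.8 CPM in P1 to P5. The Old mice fell into a high pair, O3 and O5, and 3 mice at or below 30.3 CPM, while A1 was the highest of all. Nr1d1 differed by a log2 fold change of -0.85 (SE 0.63, adjusted p = 0.401) in Old against Adult, -0.21 (SE 0.63, adjusted p = 0.932) in PDX against Old and -1.06 (SE 0.63, adjusted p = 0.356) in PDX against Adult mice. Without O3 the difference between Old and Adult mice was -1.55 (adjusted p = 0.0990) and that between PDX and Old mice was 0.48.

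Nr1d2 (chr14:18204054-18239127, minus strand) ordered the Old mice as Nr1d1 did, except that O5 and O3 changed places. Nr1d2 read 54.0, 35.2, 29.9, 77.6 and 22.6 CPM in A1 to A5. Nr1d2 read 9.68, 24.1, 65.9, 12.5 and 73.8 CPM in O1 to O5. Nr1d2 read 17.9, 20.9, 18.7, 19.1 and 26.0 CPM in P1 to P5. A4, O5 and O3 were the 3 highest mice and O1 and O4 the lowest, with the PDX mice between them. Nr1d2 differed by a log2 fold change of -1.10 (SE 0.50, adjusted p = 0.227) in PDX against Adult, -0.86 (SE 0.50, adjusted p = 0.793) in PDX against Old and -0.24 (SE 0.49, adjusted p = 0.790) in Old against Adult mice.

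Per length of transcript, Nr1d1 was the most abundant of the 10 genes, with a median of 28.3 CPM per kb of exon over the 15 mice. Cry1 (5.49), Nr1d2 (4.45), Cry2 (4.39), Arntl (4.27) and Per1 (4.08) followed at nearly the same level per length. Npas2 (2.36), Clock (2.07) and Per2 (1.60) were lower, and Per3 was lowest at 0.387 CPM per kb. Nr1d1 was above Cry1 in 14 of 15 mice and Per2 above Per3 in 15 of 15. The order of the neighbours from Cry1 to Per1 held in only 6 to 9 of 15 mice, so that their spread was wider than the steps between them.

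The question behind the group comparisons was whether age or protectin DX came with a different state of the clock in the liver. None of the 10 genes passed an adjusted p of 0.05 in any of the 3 comparisons with edgeR. Between Old and Adult mice 0 of 10 were called, where 6.78% of all 15808 tested genes were, and 0 of 10 had an unadjusted p under 0.05, where 27.7% of all genes did. DESeq2, which called 13.5% of the genes it tested, and limma on the deposited values also called 0. In Old mice 6 of the 10 had a lower fitted mean, where 43.2% of all genes did, and the median log2 fold change was -0.05 against 0.07 over all tested genes. No clock gene separated Old from Adult mice without overlap, where 8.13% of all genes did.

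Between PDX and Old mice 0 of 10 clock genes were called, where 0% of all genes were. Per1 alone had an unadjusted p under 0.05, where 5.28% of all genes did, and DESeq2, which called 0.00344% of the genes it tested, and limma called 0 clock genes. Of the 10, 9 had a lower fitted mean in PDX mice, all but Npas2, where 59.9% of all genes did. The median log2 fold change was -0.64, beside -0.07 over all tested genes. For Nr1d1 the mean of log2 CPM was higher in PDX (5.76) than in Old mice (5.43), with 3 of 5 PDX mice above the Old mean. For Arntl the fitted value was -0.14 (SE 0.46), and it was 0.12 without O5. The 5 PDX mice all lay below the Old mean of log2 CPM for Clock, Per1, Per2, Per3, Cry2 and Nr1d2. The share of all genes with this pattern was not taken. For Nr1d2, O1 at 9.68 CPM and O4 at 12.5 CPM lay below every PDX mouse, as O4 at 1.19 CPM did for Per3. Without O5 the log2 fold change was -0.16 for Cry2, -0.45 for Nr1d2 and -0.82 for Per1. Without O3 it was -0.69 for Per3. No fit without a single mouse turned the sign of any of these genes.

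Between PDX and Adult mice edgeR called 0 of 10 clock genes, where 2.66% of all genes were called, and 4 (Clock, Per2, Per3 and Nr1d2) had an unadjusted p under 0.05, where 20.6% of all genes did. DESeq2 called Per3 alone, where it called 7.41% of the genes it tested, and limma called 0. Lower fitted means in PDX mice were found for 8 of 10, all but Arntl and Npas2, where 51.6% of all genes had one, and the median log2 fold change was -0.84, beside -0.01 over all tested genes. Per3 and Cry2 separated these groups without overlap, where 19.9% of all genes did. In a fit of the 10 mice of these groups alone, which leaves out the wide spread of the Old group, Clock, Per3, Cry2 and Nr1d2 passed, with adjusted p = 0.0400, 0.0248, 0.00708 and 0.0141, where 29.6% of all genes in that fit passed. Without O2 and O5 Clock and Cry2 passed, where 24.6% of all genes did. The comparisons share the PDX and Adult mice with those above and are not independent of them.

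**Figure D2:**
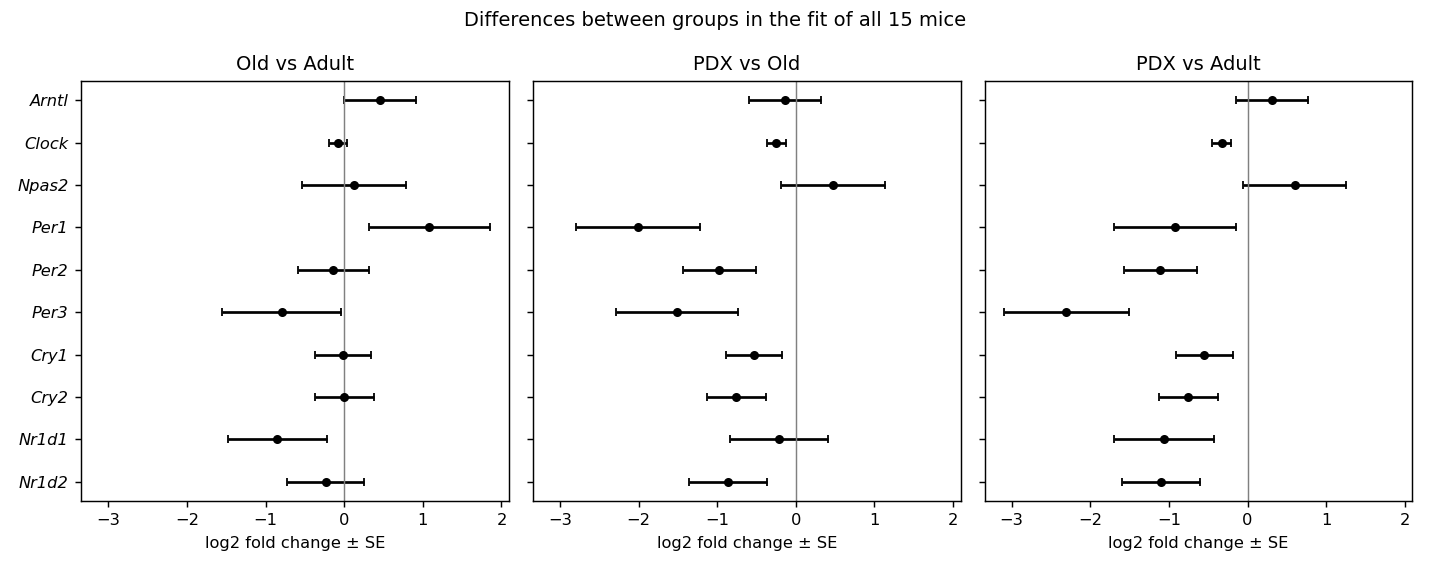
Log2 fold change (horizontal axis) with its SE for each of the 10 clock genes (vertical axis) in Old against Adult, PDX against Old and PDX against Adult mice. Most points lie near 0 in Old against Adult mice, 9 of 10 lie below 0 in PDX against Old mice, and Per3 at -2.30 is the lowest point in PDX against Adult mice.

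Most of the variation lay between mice of the same group. The SD of log2 CPM within groups was 1.40 for Npas2, 1.37 for Per1, 1.25 for Per3, 1.13 for Nr1d1 and 1.01 for Arntl, and these 5 genes varied more than 90% of the tested genes. It was 0.88 for Nr1d2, 0.76 for Per2, 0.66 for Cry1, 0.62 for Cry2 and 0.17 for Clock. The median was 0.95 over the clock genes and 0.38 over all tested genes. Clock, which varied more than only 8.06% of the tested genes, stood apart from its partner genes in this respect.

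The PDX group was the tightest for 9 of the 10 genes, all but Nr1d1, where 39.4% of all tested genes had their smallest SD in that group. For Npas2 the SD of log2 CPM was 0.07 in PDX mice against 1.94 in Adult and 1.44 in Old mice. For Arntl it was 0.13 against 1.65 and 0.58, and for Nr1d2 0.21 against 0.70 and 1.34. Over all tested genes the median SD was 0.20 in Adult, 0.53 in Old and 0.23 in PDX mice. The difference in spread between groups was not tested, and A4, O3 and O5 enter the Adult and Old values.

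**Figure D3:**
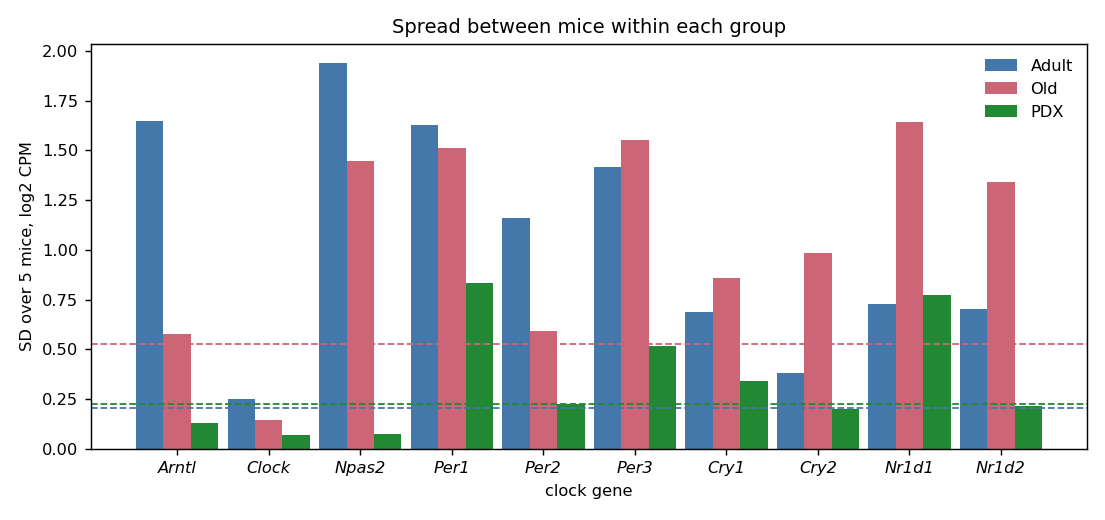
SD of log2 CPM over the 5 mice of each group (vertical axis, bars from 0) for each clock gene, with dashed lines at the median SD of all 15808 tested genes in the group of the same colour. The PDX bar is the shortest of its set for every gene but Nr1d1, and the Clock bars lie far below those of Npas2.

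Mouse by mouse, A4 departed most from the other animals. The departure of a value is its log2 CPM minus the median of the 15 mice. In A4 the median absolute departure of the 10 genes was 1.54, beside 0.23 over all tested genes of that mouse, and 8 of 10 clock genes departed by more than 1, where 6.97% of all genes did. A4 was the lowest mouse for 3 genes (Arntl, Npas2 and Clock) and the highest for 3 (Per2, Per3 and Nr1d2). Its hepatocyte marker sum was 117081 CPM, the lowest of the Adult group, and its B cell marker sum was 8.01 CPM, within the Adult range of 5.04 to 8.53.

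O5 departed by a median of 1.38 over the clock genes and was the highest mouse for Arntl, Per1, Cry1 and Cry2. Unlike A4, O5 also departed over the whole transcriptome, with a median of 0.64 over all genes and 32.0% of genes beyond 1. In O5 the activator genes disagreed with each other, since Arntl was the highest of 15 mice and Npas2 was lower only in A4. O3 departed by 0.89 over the clock genes and 0.20 over all genes, and 5 of its clock genes were beyond 1, where 4.51% of all its genes were. It had low Npas2 and Cry1 and high Per3, Nr1d1 and Nr1d2, while its Arntl of 25.6 CPM was within the range of the other Old mice. A1 departed by 0.91, beside 0.20 over all genes, with the highest Nr1d1 and the lowest Per1 and Per2. No PDX mouse was the highest or lowest for any of the 10 genes, and P5 was the closest to the median mouse, with 0.09 over the clock genes and 0.12 over all genes.

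**Figure D4:**
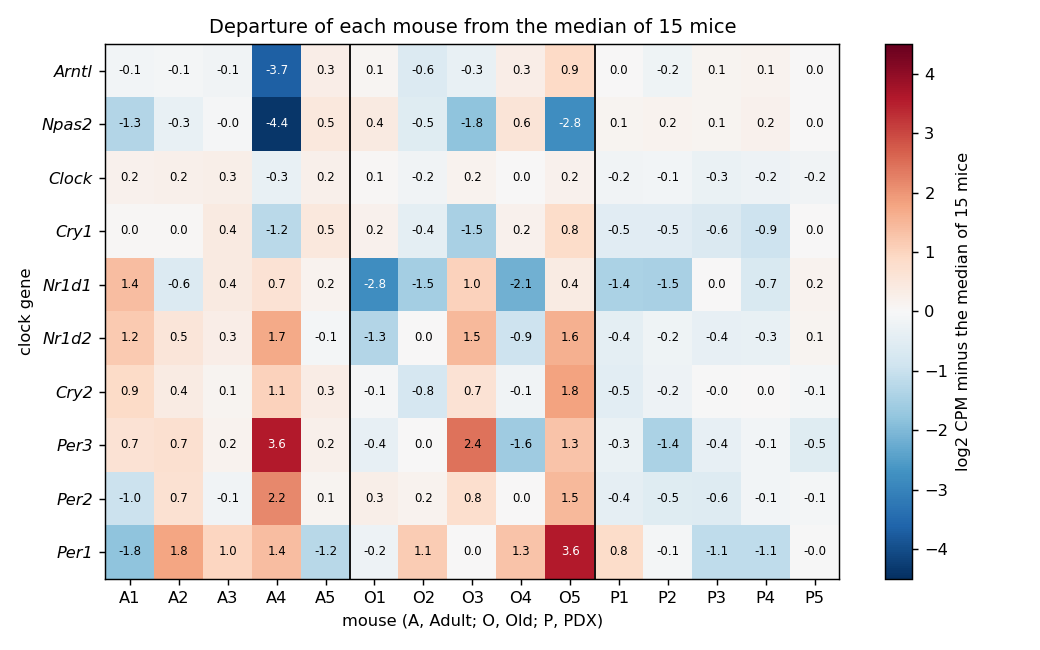
Log2 CPM minus the median of the 15 mice for each clock gene (rows) in each mouse (columns, grouped as Adult, Old and PDX), blue below and red above the median, with the value printed in each cell. A4 shows blue Arntl and Npas2 with red Per2 and Per3, O3 shows a weaker form of this without low Arntl, O5 shows low Npas2 with the strongest Per1, and the PDX columns are pale apart from Nr1d1, Per3 or Per1 in single mice.

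As a hand of the clock, log2 Arntl minus log2 Nr1d1 was -2.93, -0.88, -2.00, -5.77 and -1.31 in A1 to A5. It was 1.44, -0.52, -2.79, 0.99 and -0.90 in O1 to O5 and 0.00, -0.15, -1.33, -0.62 and -1.61 in P1 to P5. A4, A1 and O3 were the 3 lowest mice, O1 and O4 the highest, and the groups overlapped. Npas2 minus Per3 was -0.39, 0.56, 1.37, -6.35 and 1.85 in A1 to A5. It was 2.36, 1.05, -2.65, 3.75 and -2.49 in O1 to O5 and 2.02, 3.20, 2.08, 1.89 and 2.12 in P1 to P5. By this pair A4, O3 and O5 were lowest and O4 highest, and each PDX mouse lay above each Adult mouse but within the range of the Old mice. The lowest PDX value (1.89 in P4) was close to the highest Adult value (1.85 in A5). Among all tested genes, 19.9% separated PDX from Adult mice without overlap. O5 ranked 8 of 15 by Arntl minus Nr1d1 and 13 of 15 by Npas2 minus Per3, so that its place in the order depended on the pair. Neither index was set against an hour of collection, which was not tested.

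Across the 15 mice, 12 of the 45 pairs of clock genes correlated with an adjusted p under 0.05 in a permutation test on Pearson's r (100000 resamples, two-sided, adjusted over 45 pairs), 8 positively and 4 negatively. Spearman's rho called 10 pairs, 8 of them shared with Pearson's r. The strongest negative pairs joined Npas2 to the opposite arm of the loop. Npas2 and Nr1d2 had r = -0.87 (p = 1e-05, the smallest that the resamples can give, adjusted p = 0.00045) and rho = -0.89 (p = 3e-05, adjusted p = 0.00135), and r was -0.89 without A4 and O5, the mice farthest from the median. Npas2 and Per3 had r = -0.88 (p = 6e-05, adjusted p = 0.0009) and rho = -0.76 (p = 0.00165, adjusted p = 0.0113), and r was -0.81 without A4 and O5. Npas2 and Cry2 had r = -0.75 (p = 0.00275, adjusted p = 0.0155) and rho = -0.59 (p = 0.0244, adjusted p = 0.0868), and r = -0.54 without these mice. Npas2 and Per2 had r = -0.77 (p = 0.00265, adjusted p = 0.0155) but rho = -0.39 (p = 0.152, adjusted p = 0.342), and r was -0.14 without A4 and O5, so this relation rests on them.

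The positive pairs joined genes of the repressor arm. Nr1d1 and Nr1d2 had r = 0.82 (p = 0.00021, adjusted p = 0.00236) and rho = 0.82 (p = 0.00029, adjusted p = 0.00495), with r = 0.70 without O1 and O4. Per3 and Nr1d2 had r = 0.84 (p = 5e-05, adjusted p = 0.0009) and rho = 0.83 (p = 0.00033, adjusted p = 0.00495), with r = 0.76 without A4 and O3. Cry2 and Nr1d2 had r = 0.79 (p = 0.00036, adjusted p = 0.00324) and rho = 0.76 (p = 0.00176, adjusted p = 0.0113), with r = 0.66 without A4 and O5. The other 5 positive pairs were Per1 with Per2, Per2 with Per3, Per3 with Cry2, Per3 with Nr1d1 and Cry2 with Nr1d1, with r from 0.64 to 0.76, and all 12 pairs kept their sign without the 2 farthest mice. With the group mean removed from each gene, 1 pair passed, Npas2 and Nr1d2 (r = -0.86, adjusted p = 0.00315).

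Arntl was in none of the 12 pairs, but 4 of its 9 pairs passed without O2 and O5. Arntl and Npas2, the activators that share the ROR element control described above, had r = 0.66 (p = 0.0542, adjusted p = 0.122) and rho = 0.55 (p = 0.0375, adjusted p = 0.12). Their r was -0.21 without A4, 0.91 without O5 and 0.65 without both. Without O2 and O5 the r of Arntl was 0.92 with Npas2 (adjusted p = 0.00105), -0.76 with Per3 (adjusted p = 0.0114), -0.62 with Nr1d2 (adjusted p = 0.00225) and -0.62 with Cry2 (adjusted p = 0.0340), in permutation tests over 13 mice that include A4. With A4 and O5 left out instead, the r of Arntl was -0.39 with Per3, -0.51 with Nr1d2 and 0.16 with Cry2. Arntl and Cry1, with r = 0.56 (p = 0.0165, adjusted p = 0.0532) and rho = 0.53 (p = 0.0466, adjusted p = 0.14), had r = 0.37 without A4 and O5. That pair passed on the deposited log2 values (r = 0.57, adjusted p = 0.0437) and with size factors (r = 0.57, adjusted p = 0.0490). Arntl and Nr1d1, repressed gene and repressor, had r = -0.22 (p = 0.481, adjusted p = 0.656) and rho = -0.26 (p = 0.352, adjusted p = 0.586), with r = -0.14 without A4 and O5.

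**Figure D5:**
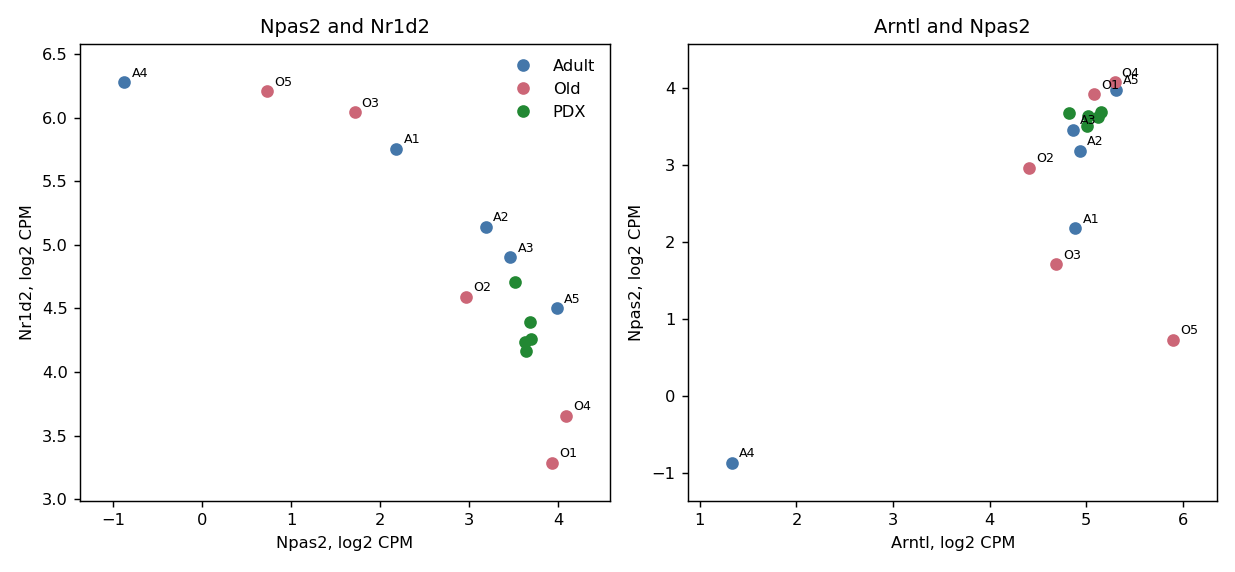
Log2 CPM of Npas2 against Nr1d2 (left) and of Arntl against Npas2 (right), with 1 point per mouse coloured by group and the Adult and Old mice named. On the left the 15 mice run from A4, O5 and O3 with low Npas2 and high Nr1d2 to O1 and O4 with the reverse, and on the right A4 lies alone at low Arntl and O5 departs from the rest with high Arntl and low Npas2.

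Among 12013 other genes whose log2 CPM averaged 1 or more, those whose levels followed Arntl most closely over the 15 mice were Chka (r = 0.94), Tubb2a (0.93), Nelfb (0.87), Nfil3 (0.85) and Irf2bp2 (0.84). Chka encodes choline kinase alpha and Nfil3 the bZIP repressor of D-boxes. The genes most opposed to Arntl were A930033H14Rik (-0.87), Mcur1 (-0.85), Ccdc85b (-0.83), Dclre1a (-0.82) and Trim11 (-0.80). These values lean on A4: without it r was 0.73 for Chka, 0.63 for Nfil3, 0.39 for Irf2bp2 and -0.29 for Trim11. Those most like Nr1d1 were Abtb1 (0.91), Mafg (0.89), Rmnd5a (0.89), Dnmbp (0.89) and 4930523C07Rik (0.89), and their r was 0.88 to 0.92 without A4. The correlations are descriptions over 15 shared libraries and carry no p.

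The clock's output factors carry time of day to metabolic genes, and Dbp and Tef were highest and Nfil3 lowest in A4. Dbp read 40.5, 11.4, 5.02, 189.0 and 4.94 CPM in A1 to A5. Dbp read 2.59, 3.92, 56.7, 1.30 and 20.8 CPM in O1 to O5. Dbp read 2.80, 2.29, 3.47, 2.93 and 3.75 CPM in P1 to P5. A4, O3, A1 and O5 were the 4 highest mice, and each PDX mouse lay below each Adult mouse, where 19.9% of all genes separated these groups. The log2 fold change of Dbp in PDX against Adult mice was -4.04 (SE 1.17, adjusted p = 0.0771 in edgeR and 0.00418 in DESeq2), or -2.35 without A4, and -4.01 (adjusted p = 0.0223) without O2 and O5. It was -2.48 (SE 1.10, adjusted p = 0.793) against Old mice, or -1.23 without O3, and -1.56 (SE 1.04, adjusted p = 0.352) in Old against Adult mice, and the last was 0.13 without A4.

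Hlf, a PAR bZIP factor of the same family, was the output factor that passed the test. Hlf read 34.8, 35.2, 38.7, 58.7 and 38.3 CPM in A1 to A5. Hlf read 26.2, 15.9, 35.7, 23.6 and 16.5 CPM in O1 to O5. Hlf read 22.2, 23.3, 18.6, 19.7 and 26.9 CPM in P1 to P5. It fell by 0.80 (SE 0.22, adjusted p = 0.0398) in Old against Adult mice and by 0.89 (SE 0.22, adjusted p = 0.0390) in PDX against Adult mice. The PDX and Adult values did not overlap, which held for 19.9% of all tested genes. Each call was lost in 10 of the fits without 1 mouse, with adjusted p up to 0.103 and 0.108, and both were lost with no low-count filter (adjusted p = 0.0577 and 0.0556). The Old against Adult call was also lost in the fit of 2 groups (adjusted p = 0.133) and without O2 and O5, where the value was -0.52 (adjusted p = 0.108). PDX and Old mice differed by -0.09 (SE 0.22, adjusted p = 0.917).

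Tef was highest in A4 at 225.8 CPM and in O5 at 211.3 CPM, with 20.7 to 99.3 CPM in the other mice, and differed by -0.25 (SE 0.61), -1.30 (SE 0.62) and -1.56 (SE 0.62) in Old against Adult, PDX against Old and PDX against Adult mice. Nfil3 was lowest in A4 at 10.6 CPM, beside 29.1 to 93.8 CPM elsewhere, and differed by 0.36 (SE 0.44), 0.17 (SE 0.43) and 0.53 (SE 0.44). The adjusted p-values of Tef and Nfil3 were between 0.174 and 0.922. Tef passed in PDX against Adult mice in the fit of 2 groups (adjusted p = 0.0178) and without O2 and O5 (0.0386), and its PDX against Old value was -0.49 without O5. Rora, a gene of an ROR receptor, differed by 0.07 (SE 0.27) in Old against Adult, by -0.38 (SE 0.27) in PDX against Old and by -0.30 (SE 0.27) in PDX against Adult mice, none of them called, and the last passed in the fit of 2 groups (adjusted p = 0.0493). Rorb was at or near 0 in every liver and was not tested.

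Over 6 lists of 24 further clock genes (output factors, ROR receptors, other repressors and paralogs, kinases, ubiquitin ligase parts and other partners), 23 were tested. In Old against Adult mice 0 were called higher and 2 lower, Hlf and Fbxl21, where 6.78% of all genes were called in either direction. Fbxl21, whose product acts on cryptochrome stability, read 1.19 to 1.90 CPM in Adult and 0.469 to 1.02 CPM in Old mice and fell by 0.97 (SE 0.24, adjusted p = 0.0297). This call was lost in 5 of the fits without 1 mouse, in the fit of 2 groups (adjusted p = 0.111), with no low-count filter (0.0778) and without O2 and O5, where the value was -0.79 (0.0635). In PDX against Adult mice Fbxl21 differed by -0.68 (SE 0.23, adjusted p = 0.122) and was not called. It passed there in the fit of 2 groups (adjusted p = 0.0208) and without O2 and O5 (0.0281), where 29.6% and 24.6% of all genes passed. Between PDX and Old mice edgeR, DESeq2 and limma called 0 of 23, and 1 had an unadjusted p under 0.05. Between PDX and Adult mice 1 was called, Hlf, where 2.66% of all genes were, and 20 of 23 had a lower fitted mean, where 51.6% of all genes did.

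Lists of 16 genes that answer to glucocorticoids, temperature or fasting and feeding, signals that can also set the clock of the liver, held 0 genes called by edgeR in any comparison. An unadjusted p under 0.05 was found for 3 of 16 in Old against Adult, 5 in PDX against Old and 3 in PDX against Adult mice, where 27.7%, 5.28% and 20.6% of all genes had one. DESeq2 called 2, 0 and 1 of them, and limma 0 in each. The part of these signals in the spread of the clock genes was not tested.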

How the data were processed

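Poly(A)-selected liver mRNA was sequenced from 15 mice. The authors aligned reads to mm10 with STAR (2.6.0c) and deposited unnormalized counts of uniquely aligned, properly paired reads on the sense strand of Ensembl genes outside the mitochondrion, made with featureCounts (Subread 1.6.2). The authors also deposited log2-scale values from the variance stabilizing transformation of DESeq2 (1.23.10), used here only in an alternative.

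The symbols of 55104 of 55450 gene IDs came from GENCODE M21 (GRCm38). Genes were filtered with filterByExpr (minimum count 10, minimum total 15), scaled by TMM and fitted with the quasi-likelihood test of edgeR (4.0.16, R 4.3.3) with 1 coefficient per group over all 15 mice. Benjamini-Hochberg adjustment covered all 15808 tested genes, and the threshold was 0.05. The study's methods name the Wald test of DESeq2, run here (1.42.0) as an alternative together with limma (3.58.1), other scalings and filters, fits of 2 groups, a replicate block and fits without each mouse. Log2 CPM used a prior count of 2. The 22424383 to 36070835 counted pairs per mouse set the counting precision. The named genes were the 10 clock genes, the output factors and ROR receptors (1 gene is not reported here), listed genes past the threshold, and the 5 genes at each end of the correlations described. Members and lists were chosen with earlier results of these data known. Same-numbered mice are different animals, and the main fit did not pair them by number.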

Additional observations from a re-analysis of the deposited data

Results flagged for a closer look

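A gap test of the highest and lowest mouse of each group, which chance passes in about 1 of 20 groups, singled out 6 of 36 group values of the clock genes and their 2 indices. The 36 values share mice and genes and are not independent, so the count cannot be compared with that rate. In the Adult group A4 stood apart in 5 of the 6. Its log2 CPM of Arntl, the transcriptional activator, was 1.33, where the nearest Adult mouse had 4.86. Clock, the gene of its partner, was at 4.50 in A4 and at 5.03 in the nearest mouse. Per3, of the repressor arm, was at 5.48 in A4 and at 2.63 in the nearest mouse, and the repressor gene Cry1 was at 2.98, where the nearest mouse had 4.24. The index of Npas2 minus Per3 was -6.35 in A4 and -0.39 in the nearest mouse. In the PDX group the same index was 3.20 in P2, where the nearest mouse had 2.12, with Npas2 at 12.8 CPM and Per3 at 1.32 CPM. The hour at which A4 and P2 were collected is not given in the sources used here, and its part in these values was not tested.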

How the results depend on the processing

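Over 23 alternatives, 648 of 690 fold changes of the 10 clock genes kept their direction and side of the threshold, 34 changed sign and 8 became significant; the causes were not tested beyond what each setting leaves out. Called clock genes stayed at 0 in Old against Adult and PDX against Old mice. In PDX against Adult mice they were 1 with DESeq2, 4 in the fit of 2 groups, 2 without O2 and O5, and 0 to 1 without single mice. Called genes in Old against Adult mice were 2605 with DESeq2, 665 unfiltered, 105 with 2 groups, 237 with the replicate block, 651 with limma and 156 to 2178 without single mice. They were 1388, 4529 and 4004 in PDX against Adult mice with DESeq2, 2 groups and no O2 and O5 (166 to 1766 without single mice), and in PDX against Old mice 1 with DESeq2 and 0 without each single mouse. Correlated pairs numbered 1 with centring within groups and 8 to 13 without single mice.

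Signs that turned belonged to differences that were not called. In Old against Adult mice they were Clock (0.000314 by library size), Cry1 (0.00331 by size factors, 0.0462 by library size, 0.00884 with 2 groups), Cry2 (-0.0129 unfiltered, -0.39 without O2 and O5, -0.23 with limma), Per1 (-0.27 without O2 and O5), Per2 (0.15 with limma) and Rora (-0.22 without O2 and O5, -0.0639 with limma). With limma Nr1d1 was 0.32 in PDX against Old mice. Same-numbered mice correlated over 0.1 in 0 of 5 pairs in Old against Adult, 3 of 5 in PDX against Old and 1 of 5 in PDX against Adult mice. Their means were -0.17, 0.09 and 0.03, beside 0.0435, -0.0225 and -0.00780 over the other 20 pairs of each comparison. Whether the numbers followed a batch is not given in the sources used here, and such a count cannot decide it. With the replicate block Cry2 was -0.21, Per2 0.12 and Rora -0.0609 in Old against Adult mice and Nr1d1 0.0745 in PDX against Old mice, and Hlf (adjusted p = 0.0899 in Old against Adult, 0.0858 in PDX against Adult mice) and Fbxl21 (0.0827 in Old against Adult mice) did not pass.

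Without single mice the log2 fold changes that turned ranged, in Old against Adult mice, from -0.30 to 0.20 for Cry1, -0.59 to 0.21 for Cry2, -0.24 to 0.51 for Npas2, -0.65 to 0.0673 for Nr1d2, -0.10 to 1.48 for Per1, -0.45 to 0.60 for Per2, -1.61 to 0.54 for Per3, -2.81 to 0.13 for Dbp, -0.35 to 0.23 for Rora and -1.07 to 0.39 for Tef. In PDX against Old mice they ranged from -0.28 to 0.12 for Arntl, -0.50 to 0.48 for Nr1d1, -0.21 to 0.11 for Hlf, -0.00693 to 0.37 for Nfil3 and -0.53 to 0.0469 for Rora. The r of Arntl ranged from -0.49 to 0.61 with Cry2, -0.21 to 0.91 with Npas2, -0.29 to 0.0564 with Nr1d1, -0.61 to 0.0692 with Nr1d2, -0.38 to 0.32 with Per1 and -0.78 to 0.39 with Per2, each sign turning without A4.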
